A study of Mus musculus with 2 samples.

Results

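C1q macrophages with less MHC class II RNA were a group of 166 cells among the 16882 barcodes that passed a quality filter in single-cell RNA-seq of mouse dorsal root ganglia (DRGs). They were selected on measured values within each of 2 samples. A barcode needed over 300 detected genes, at least 1000 unique molecular identifiers (UMIs, which mark single transcripts) and a mitochondrial share of at most 22%. It was called a C1q macrophage when *C1qa*, *C1qb* and *C1qc* together reached 20 UMIs per 10000 and at least 5 UMIs, with *Fabp7*, a marker of satellite glia, under 30 per 10000 and at most 2 UMIs each of *Ncmap*, *Scn7a*, *Col1a1*, *Rgs5* and *Flt1*. Of the 330 cells chosen in this way, 185 were in replicate 1 and 145 in replicate 2. Those at or below the median of their own sample for the sum of *Cd74*, *H2-Aa*, *H2-Ab1* and *H2-Eb1* per 10000 UMIs, called the MHC II score here, formed the lower group, with 93 cells in replicate 1 and 73 in replicate 2, and the other 92 and 72 cells formed the higher group. The 4 genes of the score are given as a description of the choice and enter no result.

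Both samples were L4 and L5 DRGs of naive C57BL/6 female mice of 3 months, with no treatment and no second condition. The ganglia were dissociated with papain and collagenase, and live cells were sorted with a viability stain before they were loaded on the 10x Chromium system. How many animals each replicate holds is not given in the sources used here, so p-values measure the spread between these 2 samples. The files hold 119101743 UMIs in replicate 1 and 128668771 in replicate 2 summed over every barcode, empty droplets included. The 2 samples shared 39 of their barcodes past the quality filter and 0 of their C1q macrophage barcodes.

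Macrophages of the DRG lie around neurons with their satellite glia and along vessels, where they clear debris and present antigen. C1q is the first component of the classical complement pathway, and in nervous tissue its subunits come mainly from macrophages and microglia. MHC class II molecules carry peptides to CD4+ T cells. They are built from alpha and beta chains around the invariant chain *Cd74*, loaded with the help of H2-DM and transcribed under the coactivator *Ciita*. In many tissues, macrophages with little MHC class II and scavenger receptors such as *Cd163*, *Folr2* and *Lyve1* are regarded as long-lived residents, and macrophages with much MHC class II and the monocyte receptor *Ccr2* as replaced more often from blood.

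The MHC II score that made the choice ran without a gap across the median in both samples. The lower group spanned 0 to 438 UMIs per 10000 in replicate 1, with a median of 174, and 1.11 to 497 in replicate 2, with a median of 352. The 2 members just inside the limit stood at 438.4 and 428.8 in replicate 1 and at 496.6 and 489.5 in replicate 2, and the 2 cells just outside at 444.0 and 444.6, and at 500.2 and 500.5. In replicate 1, 17 members lay within 10% below the limit and 14 other cells within 10% above it, and in replicate 2 these were 15 and 16. The lower group is thus a range of the score, cut at the median. The samples filled it differently. In replicate 1, 25 of the 93 members had a score under 20, 8 of them with no UMI of the 4 genes, and in replicate 2 only 5 of 73 were under 20 and none at 0.

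**Figure D1:**
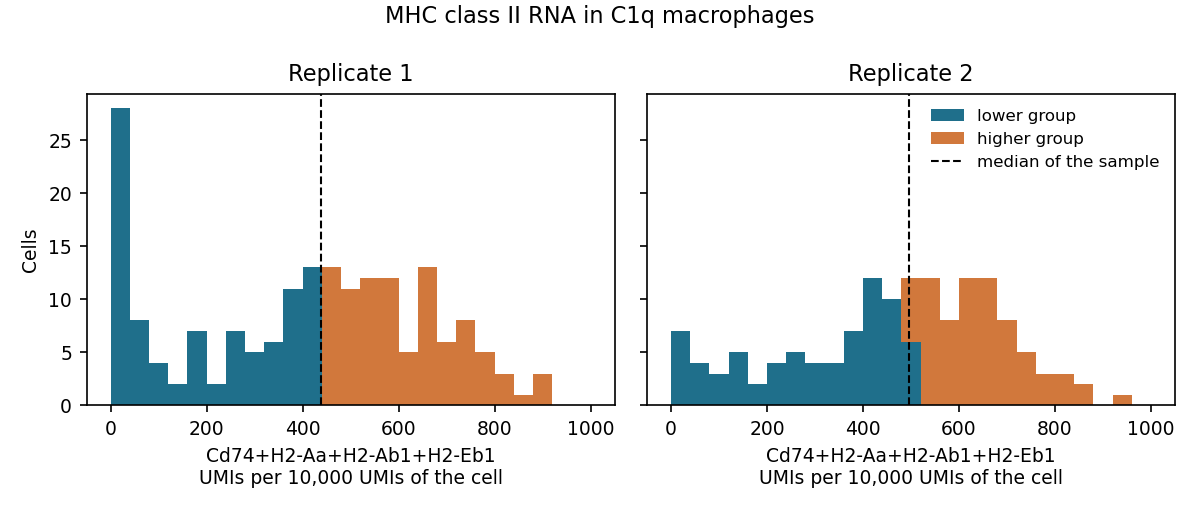
Number of C1q macrophages (vertical axis) by MHC II score in UMIs per 10000 UMIs of the cell (horizontal axis) in replicate 1 (left) and replicate 2 (right), with lower group, higher group and the median of the sample as a dashed line. The first bar of replicate 1 holds cells with almost no MHC II RNA, of which replicate 2 has few, and no gap marks the median at 438 or 497.

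The C1q genes made the choice, so their levels are a description. In CPM, for which the UMIs of the pooled cells are scaled to sum to 1000000, *C1qa* stood at 4141 and 4048 in the lower group of replicates 1 and 2, at 10.9 and 14.7 in the other ganglion cells (8143 and 8323 barcodes past the filter that were neither C1q macrophages nor leukocytes), and at 82.7 and 80.2 in empty droplets. *Mrc1*, the mannose receptor, stood at 1105 and 1456 CPM against 4.0 and 4.7 in other ganglion cells, and *Cx3cr1*, the fractalkine receptor, at 766 and 649 CPM against 4.5 and 4.9. *C1qb* and *C1qc* stood at 3862 and 3753 CPM and at 2594 and 2413 CPM. Of the 5 genes by which these cells are named, *Mrc1* and *Cx3cr1* did not enter the choice. After each cell was thinned to 1000 UMIs, *Mrc1* was detected in 55.9% of members in replicate 1 (exact binomial 95% interval 45.2 to 66.2) and in 69.9% in replicate 2 (58.0 to 80.1), against 0.209% and 0.240% of other ganglion cells. *Cx3cr1* was detected in 58.1% (47.4 to 68.2) and 43.8% (32.2 to 56.0), against 0.295% and 0.252%. Without thinning, 81 of 93 and 69 of 73 members held UMIs of both genes. These intervals cover counting error only.

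Neither receptor passed the test between the groups. Normalized CPM of *Mrc1* (scaled with TMM factors, without the 4 score genes) was 1084 and 1435 in the lower group and 1064 and 1060 in the higher group, a log2 difference of 0.24 with a standard error (SE) of 0.14 and an edgeR adjusted p of 0.470. For *Cx3cr1* it was 751 and 640 against 736 and 563, a log2 difference of 0.10 (SE 0.16) with an edgeR adjusted p of 0.861. Without the cells of glial RNA described next, the log2 differences were 0.46 (SE 0.16) for *Mrc1* and 0.25 (SE 0.16) for *Cx3cr1*. The edgeR adjusted p was 0.274 and 0.689. Of 15 macrophage identity genes, 12 outside the choice were tested, of which 1 was higher (*Fcrls*) and 1 lower (*Tyrobp*, the DAP12 adaptor), with a median log2 difference of 0.00. Over all genes tested with all members, 3.84% were higher and 2.23% lower. Markers of other cells that a live sort can hold differed by list. *Cd3e*, *Cd3d* and *Cd3g* of T cells, *Cd79a* and *Ms4a1* of B cells, *Ly6g* and *Retnlg* of neutrophils and *Ly6c2* and *Plac8* of classical monocytes had 0 UMIs in the lower group of both samples. Summed over 6 neutrophil markers, the lower group held 72.8 and 59.6 CPM, with *Csf3r* the most abundant, against 13016 and 6377 in leukocytes without C1q (38 and 48 cells with at least 2 UMIs of *Ptprc*). The sum over 8 neuron markers was 72.8 and 94.2 CPM, and over 5 mast cell markers 12 and 19.1. Over fibroblast markers other than *Col1a1* it was 119 and 100.2, and over endothelial markers other than *Flt1* 43.7 and 17.9. Over mural markers other than *Rgs5* it was 4.28 and 8.35. The choice limited *Col1a1*, *Flt1* and *Rgs5* to 2 UMIs a cell. These sums leave them out but may still be partly set by those limits. None of the markers tested from the neutrophil, neuron, fibroblast, endothelial and mast cell lists was called between the groups with all members, and no mural marker was tested. Neither were *Ighm* and *Cd79b* called, which made up the 308 and 177 CPM of the B cell list. The sum over 10 monocyte markers was 6962 and 6180 CPM, most of it *Lyz2*, which macrophages also express, against 4471 and 5305 in leukocytes without C1q. Of 13 genes of homeostatic microglia tested, *Fcrls* was the one call with all members, and the medians were 0.10 with all members and 0.25 without the cells described next. *P2ry12* and *Tmem119*, which mark microglia in the brain, stood at 83.1 and 128 CPM and at 67.7 and 75.2 CPM, and *Sall1* had 0 UMIs.

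Glial RNA was unevenly shared between the groups. The lower group held 1167342 and 838371 UMIs and the higher group 989971 and 827407. The median cell held 11246 and 10687 UMIs in the lower and 10660 and 10514 in the higher group, with a mitochondrial share of 3.23% and 2.78% against 2.77% and 2.40%. The UMIs of 10 glial markers (among them *Kcnj10*, *Bcan*, *Ptprz1*, *Fbln5* and *Ednrb* of satellite glia, and *L1cam*, *Cadm2*, *Ncam1* and *Cdh2* of non-myelinating Schwann cells) were then summed per cell. Over 10 such UMIs were found in 9 and 8 members of the lower group, and in 0 and 1 cells of the higher group. These members held 89.5% and 86.8% of the glial UMIs of the lower group, with a median of 20874 and 21688.5 UMIs per cell, against 11246 and 10687 over all members. Their median MHC II score was 211 and 171. Whether these 17 barcodes hold a macrophage with a glial cell was not tested, and no doublet caller was run. The tests below were therefore run with all members and without the 18 cells of over 10 glial UMIs, which leaves 84 and 65 cells against 92 and 71. Counts of cells and CPM are with all members unless stated.

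**Figure D2:**
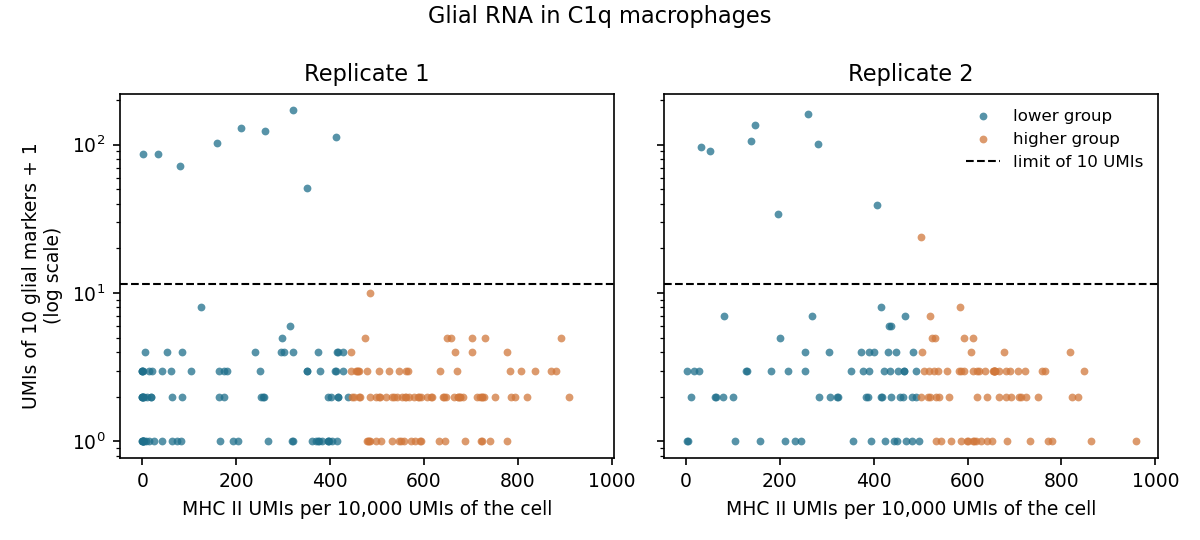
UMIs of 10 glial markers plus 1 per cell (vertical log axis) against the MHC II score in UMIs per 10000 UMIs (horizontal axis), for each C1q macrophage of replicate 1 (left) and replicate 2 (right), with the limit of 10 UMIs as a dashed line. Above the line are 9 and 8 cells of the lower group and 0 and 1 of the higher group, and most other cells hold 0 to 3 such UMIs.

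With all members, edgeR's quasi-likelihood test on UMIs summed per sample and group called 328 of 8546 genes higher in the lower group (3.84%) and 191 lower (2.23%) at an adjusted p under 0.05. With the replicate as a block the counts were 460 and 314, and scaled to total UMIs in place of TMM they were 388 and 108. Without the cells of over 10 glial UMIs, 17 of 7907 genes were higher (0.215%) and 42 lower (0.531%), or 71 (0.898%) and 106 (1.34%) with the block. Both sets of cells shared 55 calls, 17 higher and 38 lower, all in the same direction. Below, the calls without the glial-RNA cells are those without the block, and the calls with it are given where they differ. A strict gate allowed at most 2 UMIs of *Fabp7* and none of the other 5 genes. The median was set anew among the cells that passed it. This left 58 and 34 members of a new lower group against 57 and 34 cells. It gave 1 higher gene (*Rapgef5*) and 7 lower (*Ccr2*, *H2-DMb1*, *Kcnip4*, *Lyz2*, *Olfm1*, *Retnla* and *S100a4*). Some genes described below were called with all members and were not called under that gate, with smaller log2 differences there. These were -1.82 for *Lgals3*, -0.79 for *H2-DMa*, -0.59 for *Plaur*, -0.55 for *Ifi30*, -0.47 for *Npc2*, -0.43 for *Fcgr2b*, -0.31 for *Tyrobp*, -0.19 for *Ctss*, and -0.12 for *Cst3*. *Sparc*, called higher with all members, stood at 0.39 there. *Ear2* and *Il7r*, each with few UMIs, also had smaller differences and were not called there. Thinning every cell to 1000 UMIs gave 2 higher and 1 lower (*Retnla*) among 1521 genes. Most genes called higher with all members were more abundant in other cells. Of the 328 higher genes, 307 were more than 2 times as high in the rest of the ganglion barcodes, leukocytes included, as in the higher group, against 1734 of all 8546 tested. The same held for 8 of the 17 genes that were higher without the glial-RNA cells, among them *Eda*, *Gab1*, *Atxn1* and *Ptprm*, and the part of RNA from other cells in those was not tested. The 328 genes called with all members were led by *Tenm3*, *Grik2*, *Nkain2*, *Pcdh9* and *Dlgap1*, with log2 differences from 4.11 to 4.89. *Nkain2*, a partner of the sodium pump, is one example. It stood at 399 and 544 normalized CPM in the lower and 11.3 and 38.5 in the higher group, 1805 and 1739 CPM in the rest of the ganglion barcodes, and its log2 difference went from 4.28 (SE 0.36) to 0.43 (SE 0.51) without the glial-RNA cells.

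**Figure D3:**
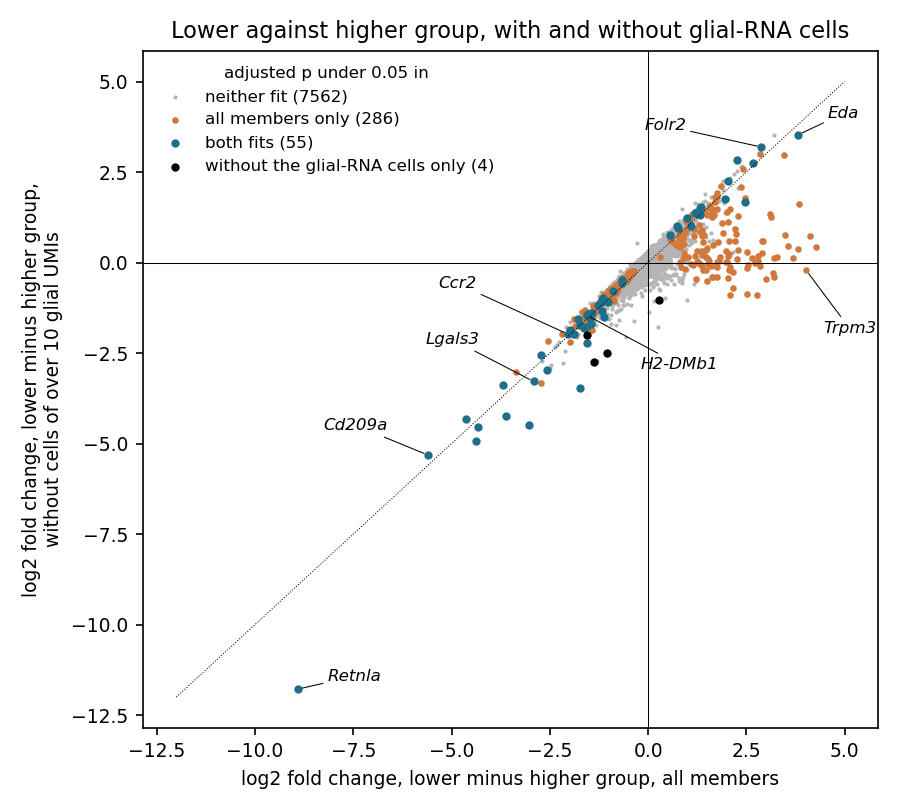
Log2 fold change of each of 7907 genes between the lower and the higher group, with all members (horizontal axis) and without the cells of over 10 glial UMIs (vertical axis), coloured by the comparison in which the edgeR adjusted p was under 0.05, with a dotted line of equality. The 55 genes called in both lie along that line, and of the 286 called with all members only, many that were higher lie near 0 on the vertical axis, as *Trpm3* does.

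Glial and Schwann genes were called higher with all members, where 3.84% of all genes tested were higher and 2.23% lower. Of 9 satellite glia markers tested with all members, 6 were higher, among them *Bcan*, *Ednrb*, *Fbln5*, *Ptprz1* and *Sparc*, and *Cst3*, which macrophages also express, was lower. The glial-RNA cells were removed for UMIs of several of these markers, so that 0 of 8 satellite glia markers were called without them (median 0.12) follows from the removal. Of markers that the removal did not use, *Sparc* went from 2.29 (SE 0.29) to 0.34 (SE 0.30) and *Pmp22*, a myelin protein, from 0.89 (SE 0.18) to 0.67 (SE 0.18), which was not called. The summed CPM of the satellite glia markers other than *Fabp7* was 34156 and 35231 in the lower group with all members. It was 32024 and 26819 in the higher group. Most of it was *Apoe*, which macrophages and glia share. The choice limited *Fabp7*, and the sum leaves it out but may still be partly set by that limit. Of 84 ribosomal protein genes tested, 39 were lower with all members and 0 were called without the glial-RNA cells, while their median log2 difference went from -0.41 to -0.30.

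Some genes of antigen loading were lower together with the MHC II score. Of 14 further genes of the MHC class II pathway in the files, 12 were tested with all members, of which 6 were lower and 0 higher, and 2 of 11 were lower without the glial-RNA cells, or 4 with the replicate block (*Ciita* and *H2-DMb2* as well). Over all genes tested, 2.23% were lower with all members and 0.531% without the glial-RNA cells, or 1.34% there with the block. Median log2 differences of the pathway genes were -1.06 and -1.10, beside -0.01 and 0.00 over all genes tested. *H2-DMa* and *H2-DMb1* encode the chains of H2-DM, which removes the invariant chain peptide from class II molecules. *H2-DMb1* stood at 251 and 294 normalized CPM in the lower and at 769 and 836 in the higher group. Its log2 difference was -1.56 (SE 0.15) with all members, and -1.46 (SE 0.18) without the glial-RNA cells, from 290 ± 65.8 to 791 ± 50.9 (SD, n = 2), with edgeR adjusted p = 0.0110, from 1.35e-17 to 0.117 over 15 alternatives. *H2-DMa* stood at 305 and 360 against 739 and 791, with log2 differences of -1.20 (SE 0.15) and -1.10 (SE 0.17). *Ciita*, the coactivator of the class II genes, stood at 50.4 and 97.6 against 178 and 219 with all members (-1.45, SE 0.28) and at 38.8 and 118 against 175 and 220 without the glial-RNA cells, where it was called with the block but not without it (-1.39, SE 0.37, edgeR adjusted p = 0.143, from 5.64e-09 to 0.861). *Ctss*, the protease that trims the invariant chain, and *Ifi30*, a lysosomal thiol reductase, were called with all members only, with log2 differences of -0.42 (SE 0.11) and -0.92 (SE 0.21) there and of -0.24 (SE 0.11) and -0.71 (SE 0.23) without the glial-RNA cells.

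*H2-DMb1* (chr17:34153072-34160230, plus strand) and its neighbour *H2-DMb2* (chr17:34143307-34151555, plus strand) are close copies, so reads they share may be split or lost in counting and the values of both are uncertain. These positions are on GRCm38 with GENCODE M21, whose gene extents begin upstream of the RefSeq starts used next. *H2-DMb2* had 3 and 3 UMIs in the lower and 14 and 19 in the higher group. The stretch before the start of each gene is shown because class II genes share a short block there that the factor NF-Y is known to bind. These sequences are from RefSeq on GRCm38.p6, 5′ to 3′ on the plus strand, with TGATTGG in capitals.
*H2-DMb1* at chr17:34153068-34153190: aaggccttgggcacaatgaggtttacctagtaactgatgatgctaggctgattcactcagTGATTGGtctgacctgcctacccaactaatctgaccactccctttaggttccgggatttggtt
*H2-DMb2* at chr17:34145097-34145223: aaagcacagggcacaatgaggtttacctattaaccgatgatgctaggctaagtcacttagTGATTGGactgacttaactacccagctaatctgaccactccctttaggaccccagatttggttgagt
Aligned on the capitals with no gap, the pair was identical at 105 of 123 positions. TGATTGG or its reverse complement CCAATCA occurred in the window of 6 of the 12 listed class II pathway genes with an entry, and in 7.82% of all 32851 windows from 250 bases before to 50 bases after a start. The 2 windows of *H2-DMa* do not hold these letters.

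MHC class I presentation gave 3 calls and costimulation 1 with all members, where 2.23% of all genes tested were lower. With all members, *H2-K1*, *H2-D1* and *H2-T23*, class I heavy chains whose near-identical family members can share reads, were lower among 13 tested, with a median of -0.37, and 0 of 13 were called without the glial-RNA cells (median -0.18). *H2-K1* stood at 744 and 895 normalized CPM against 1173 and 1417, and its log2 difference went from -0.66 (SE 0.14) to -0.53 (SE 0.15). That of *H2-T23* went from -0.94 (SE 0.21) to -0.77 (SE 0.23), which was called with the replicate block. Of 8 costimulatory genes 1 was lower with all members, *Havcr2*, an inhibitory receptor also called TIM-3. Its log2 difference was -1.32 (SE 0.33) with all members and -1.34 (SE 0.36) without the glial-RNA cells, where it was called with the block only. Of 15 interferon response genes 0 were called in either set of cells, with medians of -0.34 and -0.25.

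Monocyte genes were lower as well. Of 10 monocyte markers, 4 were tested and 3 were lower with all members (*Ccr2*, *Ear2* and *Lyz2*), and all 4 without the glial-RNA cells (*S100a4* as well). The share lower over all genes tested was 2.23% with all members and 0.531% without the glial-RNA cells. *Ccr2*, the receptor by which monocytes leave the marrow and enter tissue, stood at 128 and 167 normalized CPM in the lower and 688 and 518 in the higher group. A UMI of it was found in 26 of 93 and 29 of 73 members, against 76 of 92 and 53 of 72 cells of the higher group. Its log2 difference was -2.04 (SE 0.20) with all members and -1.98 (SE 0.26) without the glial-RNA cells, where the edgeR adjusted p was 0.0110 (3.12e-25 to 0.188 over 15 alternatives). *Lyz2*, a lysozyme whose close copy *Lyz1* can share its reads, was the most abundant gene of the list, at 6644 and 5872 against 10423 and 9501 normalized CPM, with log2 differences of -0.67 (SE 0.09) and -0.49 (SE 0.08). *S100a4*, a calcium-binding protein that glia also express, was at 12.3 and 25.4 against 72.3 and 135 normalized CPM without the glial-RNA cells (-2.51, SE 0.40). It rests on few cells. With all members 21 and 15 cells of the lower and 12 and 16 of the higher group held it, and 1 cell of the higher group held 24 of 65 UMIs in replicate 1 and 1 held 28 of 102 in replicate 2. *Ear2*, a ribonuclease whose close family members can share its reads, was found in 0 and 1 against 6 and 8 cells, with 27 of 44 UMIs in 1 cell in replicate 1. Under the gate that left 58 and 34 members *Ear2* was not called (edgeR adjusted p = 0.258).

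Dendritic cell genes had log2 differences below 0 for each of the 5 tested, in both sets of cells, with medians of -1.92 and -2.03. Of these *Cd209a* passed the test in both, and *Itgax*, the CD11c integrin chain, with the replicate block as well. Of 15 colony-stimulating factor and chemokine receptors, *Ccr2* was the one call. The share lower over all genes tested was 2.23% with all members. Without the glial-RNA cells it was 0.531%, or 1.34% with the block. Several genes with the largest differences were present in few cells. *Retnla*, a secreted resistin-like protein of alternatively activated macrophages, had 1 and 1 UMIs in the lower group and 276 and 572 in the higher, where 2 and 5 cells held it and 1 cell held 213 and 266. *Cd209a*, a lectin of monocyte-derived dendritic cells, had a UMI in 1 and 0 members against 10 and 5 cells of the higher group. *Il7r*, the interleukin 7 receptor, was found in 1 and 1 against 11 and 9 cells, and *Grap2*, an adaptor, in 1 and 3 against 19 and 12. These genes passed the test in both sets of cells, but no fold is given for counts so near 0. Under the gate that left 58 and 34 members *Il7r* was not called (edgeR adjusted p = 0.339). *Lgals3*, galectin 3, was carried by more cells, 12 and 11 members against 32 and 27 cells of the higher group, although 1 cell of the higher group held 112 of 262 UMIs in replicate 1 and 1 member held 20 of 46 in replicate 2. It stood at 40.3 and 54.1 against 297 and 408 normalized CPM, a log2 difference of -2.91 (SE 0.24) with all members and -3.28 (SE 0.25) without the glial-RNA cells (edgeR adjusted p = 0.000382, from 1.78e-35 to 0.188). Further genes lower in both sets of cells were *Malt1*, *Tnip3* and *Cytip* of lymphoid and NF-kB signalling, *Cd44*, *Slamf7*, *Alcam* and *Emb* of the cell surface, and *Plaur*, the urokinase receptor. *Malt1* had a log2 difference of 0.11, the other way, under the gate that left 58 and 34 members. *Mmp12*, an elastase, was called lower with all members, but its values were 2.52 against 224 normalized CPM in replicate 1, where 1 cell held 112 UMIs, and 25.9 against 34.6 in replicate 2, and without the glial-RNA cells it was not called.

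Some genes of resident and perivascular macrophages were higher in the lower group. Over all genes tested, 3.84% were higher with all members and 0.215% without the glial-RNA cells, or 0.898% there with the replicate block. Of 12 genes tested from this list, 5 were higher with all members (*Cbr2*, *Cd163*, *F13a1*, *Folr2* and *Maf*) and 4 without the glial-RNA cells (*Cbr2*, *Cd163*, *F13a1* and *Folr2*), and 0 were lower, with medians of 0.63 and 0.81. *Maf*, a factor of resident macrophages, went from 0.56 (SE 0.15) to 0.64 (SE 0.16), and with the replicate block 7 were called without the glial-RNA cells (*Maf*, *Pf4* and *Stab1* as well). *Cbr2*, a carbonyl reductase, stood at 122 and 111 normalized CPM against 51.0 and 39.9 with all members, and at 132 ± 4.50 against 45.1 ± 7.04 (SD, n = 2) without the glial-RNA cells, a log2 difference of 1.54 (SE 0.23) with edgeR adjusted p = 0.0165 (1.22e-05 to 0.188 over 15 alternatives). *Cd163*, the scavenger receptor for haptoglobin and hemoglobin, stood at 98.3 and 138 against 61.2 and 55.8 with all members, with log2 differences of 0.99 (SE 0.24) and 1.22 (SE 0.24). *F13a1*, a transglutaminase subunit, stood at 390 and 507 against 244 and 280, with log2 differences of 0.77 (SE 0.18) and 0.96 (SE 0.18). Both samples of the lower group were above both of the higher for these 3 genes, but with 2 samples against 2 an exact permutation test of such an order cannot go below 1 in 3. *Folr2*, a folate receptor, was rare, with a UMI in 6 and 6 members against 1 and 4 cells, and at 31.1 and 34.1 against 1.13 and 7.97 normalized CPM. *Lyve1* was found in 1 and 3 members and in 0 cells of the higher group, and *Timd4*, a receptor for phosphatidylserine, in 1 member only. *Lyve1* had a UMI in 1.07% and 1.42% of other ganglion cells, and the 1.08% and 4.11% of members give no order beside that.

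**Figure D4:**
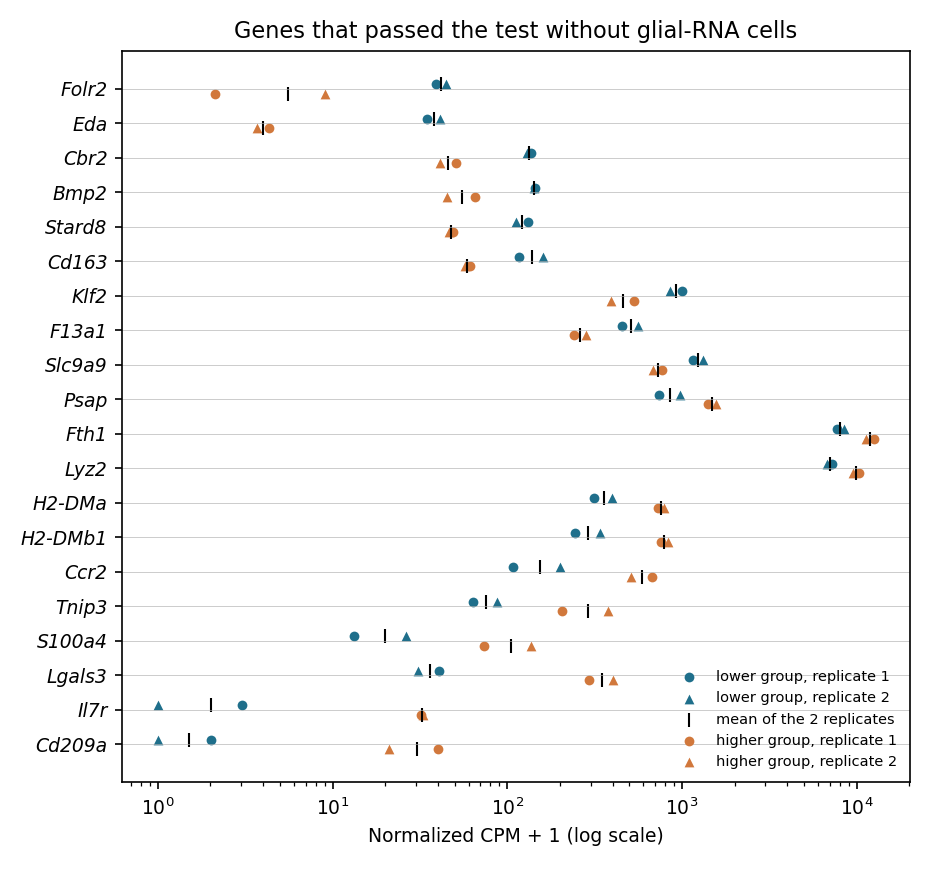
Normalized CPM plus 1 (horizontal log axis) of 20 genes that passed the test without the cells of over 10 glial UMIs, for the lower and higher group in replicate 1 (circles) and replicate 2 (triangles), with the mean of each group as a vertical bar. The groups do not overlap for these 20 genes, which follows in part from their choice by the test. The genes were higher in the lower group down to *Slc9a9* and lower from *Psap* on.

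Transcription factors and growth factors gave single calls with all members, where 3.84% of all genes tested were higher and 2.23% lower. Of 19 macrophage transcription factors tested, *Klf2* and *Maf* were higher and *Zeb2* lower with all members, and *Klf2* was called of 18 without the glial-RNA cells, with *Maf* as well under the replicate block. *Zeb2* went from -0.53 (SE 0.11) to -0.41 (SE 0.12). *Klf2*, a factor of quiescent vessels and leukocytes, stood at 866 and 688 normalized CPM against 539 and 393, with log2 differences of 0.74 (SE 0.18) and 1.01 (SE 0.17). Of 14 growth factors 11 were tested, of which *Pdgfc* was called with all members, and without the glial-RNA cells it had too few UMIs to be tested. There *Igf1*, an insulin-like growth factor, was called higher with the replicate block only. Outside that list, *Bmp2*, a bone morphogenetic protein, stood at 120 and 135 against 65.7 and 43.9 (1.20, SE 0.24, and 1.37, SE 0.24). *Slc9a9*, an endosomal sodium-proton exchanger, stood at 1056 and 1157 against 785 and 715 (0.56, SE 0.13, and 0.76, SE 0.14). *Stard8*, *Gab1*, *Atxn1*, *Eda*, *Egfl7*, *Sox4*, *Ripor2*, *Pard3b* and *Ptprm* were also higher in both sets of cells. *Ptprm*, a receptor phosphatase, was uneven between samples, at 287 and 79.9 against 41.9 and 35.9.

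Lysosome, lipid and iron genes showed single members rather than whole lists. Over all genes tested, 2.23% were lower and 3.84% higher with all members. Without the glial-RNA cells these were 0.531% and 0.215%, or 1.34% and 0.898% with the replicate block. Of 17 lysosomal genes, *Psap* and *Npc2* were lower and *Cd63* higher with all members, and *Psap* was called without the glial-RNA cells, with *Npc2* as well under the replicate block. *Npc2* went from -0.76 (SE 0.14) to -0.65 (SE 0.15) and *Cd63* from 0.77 (SE 0.16) to 0.71 (SE 0.17). *Psap*, prosaposin, stood at 704 and 923 against 1431 and 1593 (-0.90, SE 0.15, and -0.80, SE 0.15). *Fth1*, the ferritin heavy chain, stood at 7468 and 7732 against 12769 and 11487 (-0.67, SE 0.08, and -0.57, SE 0.09), but its log2 difference was -0.19 (edgeR adjusted p = 0.785) under the gate that left 58 and 34 members, while *Cd163* was the one iron and heme gene that was higher. *Lgals3* was the one call among 12 lipid-handling genes. *Apoe*, the most abundant gene of that list, stood at 28274 and 28876 CPM in the lower and 25814 and 21183 in the higher group. Of 11 efferocytosis and scavenging genes 0 were called (medians of 0.35 and 0.30). With the block and without the glial-RNA cells, *Cd36*, *Msr1* and *Stab1* were higher. Of 9 Fc and DAP12 receptors, *Fcgr2b*, *Fcgr4* and *Tyrobp* were lower with all members. None was called without the glial-RNA cells, where *Fcgr2b* went from -0.74 (SE 0.18) to -0.59 (SE 0.18), *Fcgr4* from -0.84 (SE 0.21) to -0.65 (SE 0.22) and *Tyrobp* from -0.48 (SE 0.11) to -0.27 (SE 0.12). Of 9 complement genes other than C1q, *C4b* was higher and *C3* lower with all members, with 14 and 31 against 3 and 2 UMIs and 3 and 5 against 19 and 20 UMIs. Without the glial-RNA cells these were 12 and 28 against 3 and 2 UMIs and 3 and 5 against 19 and 18 UMIs, and *C4b* was called with the replicate block only.

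Inflammatory genes were abundant in both groups. Among all genes tested, 2.23% were lower and 3.84% higher with all members. Without the glial-RNA cells these were 0.531% and 0.215%, or 1.34% and 0.898% with the replicate block. Of 14 chemokines tested, *Ccl4*, *Ccl6* and *Ccl9* were lower with all members and *Ccl9* was called without the glial-RNA cells. *Ccl6* went from -0.98 (SE 0.19) to -0.87 (SE 0.20) and was called there with the replicate block, as were *Ccl12* and *Pf4*, which were higher. *Ccl4* went from -0.51 (SE 0.11) to -0.33 (SE 0.12) and turned to 0.18 under the gate that left 58 and 34 members. *Ccl9*, a chemokine of myeloid cells, stood at 69.8 and 108 against 210 and 304 normalized CPM (-1.54, SE 0.25, and -1.45, SE 0.28). Of 9 cytokines, 8 had log2 differences below 0 in both sets of cells, with medians of -0.71 and -0.53. *Il1b* was the one call with all members, at 946 and 1600 against 2200 and 2364 normalized CPM (-0.84, SE 0.20), and without the glial-RNA cells it was called with the block only (-0.70, SE 0.22). Under the gate that left 58 and 34 members its log2 difference was -0.054 (edgeR adjusted p = 0.988). Of 16 immediate early and heat shock genes known to rise during dissociation, 0 were called in either set of cells, and their sum was 16870 and 20254 CPM against 20410 and 18270. The 13 mitochondrial transcripts gave 0 calls, as did 6 cell cycle genes. Cells with at least 5 UMIs of 8 cycling genes were 2 in each group of each sample.

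**Figure D5:**
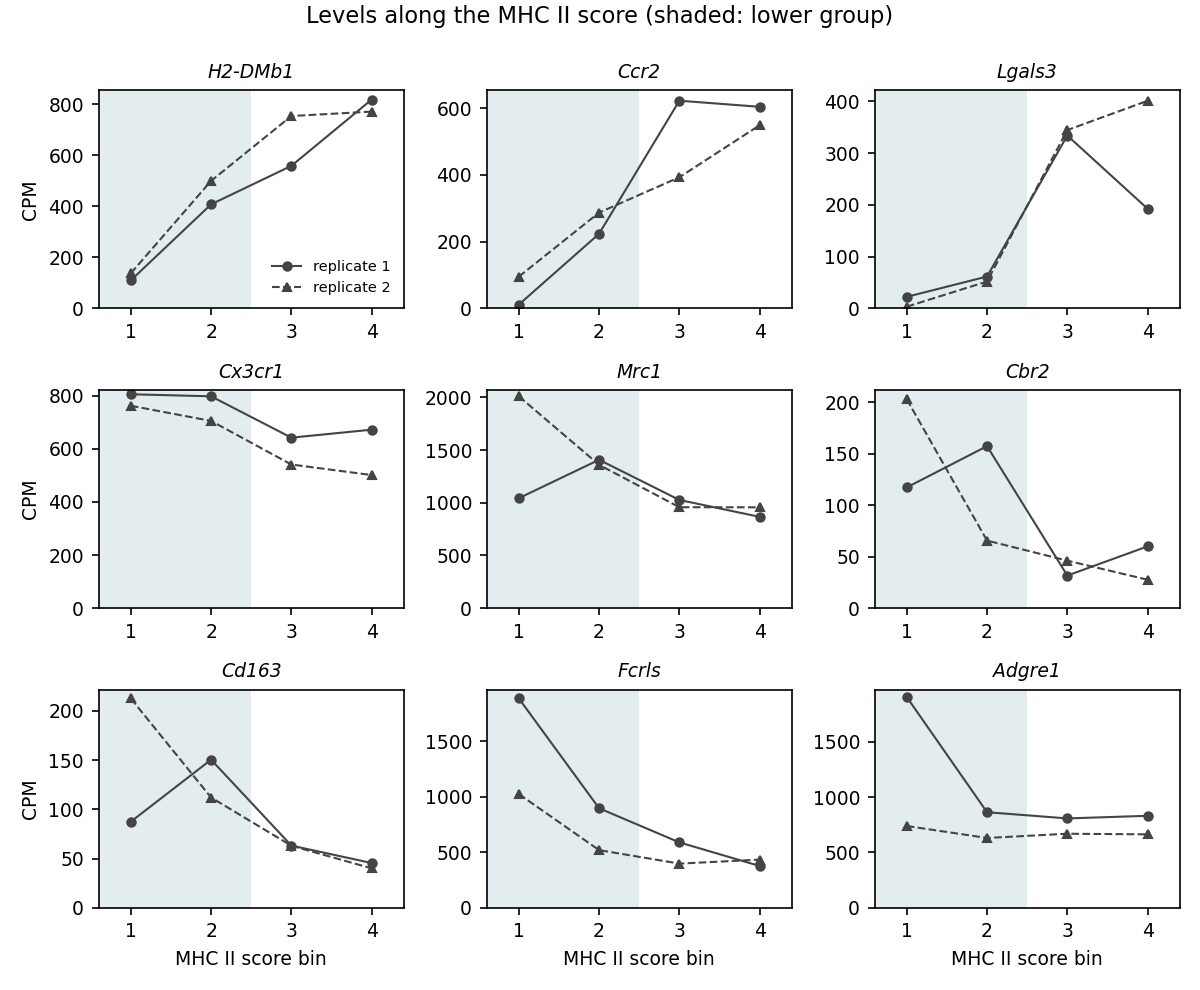
CPM (vertical axis from 0) of 9 genes in 4 bins of the MHC II score (horizontal axis, 1 is lowest, 30 to 46 cells a bin), with UMIs summed over cells of at most 10 glial UMIs in replicate 1 (solid line, circles) and replicate 2 (dashed line, triangles), and the lower group shaded. *H2-DMb1* and *Ccr2* are lowest in bin 1 in both samples, *Cx3cr1* is present in each bin, and *Adgre1* is high in bin 1 of replicate 1 only.

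Within the lower group, cells differed by how little MHC II RNA they held. This is a description with no test, over cells of at most 10 glial UMIs, which left 24 and 5 cells with a score under 20, 21 and 11 with a score of 20 to 200, and 39 and 49 with 200 or more. *Ccr2* stood at 3.3 and 0 CPM in the lowest range and at 233 and 257 in the highest. *H2-DMb1* went from 26 and 32.1 to 424 and 414 CPM, and *Ciita* from 0 and 0 to 76.2 and 145. Of *Ccr2*, 1 and 0 UMIs were in the lowest range, 5 and 5 in the next and 98 and 129 in the range that reaches the median. *Folr2* stood at 111 and 240.5 CPM in the lowest range, from 4 cells in each sample with 19 of 34 and 9 of 15 UMIs in 1 cell, and at 4.8 and 8.0 in the highest. *Fcrls*, an Fc receptor-like gene of microglia and some tissue macrophages, stood at 2470 and 1235 CPM against 866 and 617. *Mrc1* did not follow one order in both samples. It was at 823 CPM in the lowest and 1400 in the highest range of replicate 1, and at 2325 and 1420 in replicate 2.

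The lowest cells of replicate 1 included a set of cells of which none was found among the C1q macrophages of replicate 2. These were singled out after their values were seen and are given as counts. At least 3 of the 5 genes *Slc13a3*, *Acp5*, *Itgal*, *Il10* and *St18* were detected in 14 members of the lower group of replicate 1, in 0 of replicate 2, in 1 and 0 cells of the higher group, and in 1 and 1 of the other barcodes past the filter. In these 14 cells the median MHC II score was 6.02, and 1 held *Ccr2* while 13 held *Cx3cr1*. Their median *Mrc1* count was 2 UMIs against 14 in the other 79 members of that sample, and 5 had none. Their median *Adgre1*, the F4/80 antigen, was 32.0 UMIs per 10000 against 7.79, and their median *Fcrls* 26.7 against 8.38. *Fcrls* stood over the whole group at 1253 and 676 normalized CPM against 544 and 448, a log2 difference of 0.96 (SE 0.24) with all members and 1.16 (SE 0.25, edgeR adjusted p = 0.0614, from 2.12e-07 to 0.402) without the glial-RNA cells, where it was called with the replicate block only. The part of the 14 cells in that difference was not tested.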

How the data were processed

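Single-cell RNA-seq of 2 naive DRG samples was analysed. Per the labels, the authors aligned reads and counted UMIs with Cell Ranger 7.1.0 on mm10, and the deposited values are UMI counts per gene for every barcode, not normalized or filtered. Totals were 119101743 and 128668771 UMIs. The replicates are taken as the labels number them.

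The cells and gene lists were chosen with earlier results of these data known. Cells were filtered as described above, with no doublet caller beyond the limits on marker genes. UMIs were summed per sample and group, and the genes that reached 10 UMIs in 2 or more of the 4 sums were tested with edgeR 4.0.16 (quasi-likelihood test, TMM, Benjamini-Hochberg adjustment over all genes tested) in R 4.3.3. The 13 genes used for the choice were left out of the test, and the 4 MHC II genes also out of the library sizes. The comparison without cells of over 10 glial UMIs was added after the data were seen, and the median was not set again for it. The median was set again for the strict gate and for the other limits on C1q and on the mitochondrial share. Both groups of a replicate come from the same dissociation, so the replicate number pairs them by origin; their deviations from the group means correlated at r = 0.127 over 3245 genes. With 2 samples against 2, an exact permutation test of a single value cannot go below 1 in 3. On simulated data, 54% of genes changed 2-fold and 98% of genes changed 4-fold were recovered, with 3.57% and 3.45% of calls on unchanged genes. The same dispersion (0.0198) was used for every gene there, and genes with low expected counts were not changed. UMIs massed in single cells were not simulated, so these rates may not hold for the measured genes.

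The text names at most 4 genes of each of 34 lists, by level or p, plus those a list calls, and the 10 largest changes in each direction with a mean of at least 50 CPM. A few genes are not reported here. Other genes called in both sets of cells were named after their values were seen. Python 3.11.15, numpy 2.4.6, scipy 1.17.1, pandas 2.3.3 and matplotlib 3.10.9 were used. Gene positions are from GENCODE M21, where 32158 of 32285 identifiers were found. Promoter sequences are from RefSeq. Alternatives were DESeq2 1.42.0, no TMM, no filter, the replicate block, the outer parts of the score (cells near the median left out), other limits on cells, thinning, library sizes with the MHC II genes, and each replicate left out.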

Additional observations from a re-analysis of the deposited data

How the results depend on the processing

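The counts of genes higher and lower, 328 and 191 with all members, were 176 and 69 with DESeq2, 388 and 108 without TMM (which moved the median of all genes from -0.01 to 0.11), 583 and 364 without the filter on low counts, 460 and 314 with the replicate block, 281 and 110 between the outer parts of the score, with the middle cells left out, 1 and 7 under the strict gate, and 2 and 1 after thinning. Among alternatives added after the data were seen, the counts were 17 and 42 without the cells of over 10 glial UMIs, 6 and 28 without those of over 3, and, without those of over 10, 71 and 106 with the replicate block, 40 and 43 without TMM and 18 and 31 with DESeq2. The strict gate, thinning and the glial limits leave fewer cells or UMIs and test fewer genes; otherwise the cause was not tested. Counts with C1q of at least 40 per 10000 (308 and 192), a mitochondrial share up to 10% (303 and 195) or the MHC II genes in the library sizes (328 and 191) stayed within 1.5 times. Of the genes called higher with all members, 33 had a log2 difference below 0 without the cells of over 10 glial UMIs. Among the named genes, the log2 difference changed sign there for *Trpm3* (-0.21, or -0.22 with the block and -0.14 without TMM) and *Fbln5* (-0.15, -0.18 and -0.077). Without cells of over 3 glial UMIs it did so for *Dmd* (-0.056), and under the strict gate for *Malt1* (0.11) and *Ccl4* (0.18). Leaving out a replicate gives values with no test, as no residual degrees of freedom are left. Of the 78 named genes, 8 moved by more than the spread between replicates without replicate 1 and 11 without replicate 2. The value left is the ratio of the other replicate, and the fold over both lies near their mean. Most genes thus stay within that spread by construction, and these counts do not measure stability. Without thinning, *Mrc1* was detected in 89.2% and 100% of members (55.9% and 69.9% thinned) and *Cx3cr1* in 97.8% and 94.5% (58.1% and 43.8%).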

Other observations

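Unadjusted p was under 0.05 for 1413 of 8546 genes with all members and for 816 of 7907 without the cells of over 10 glial UMIs. *Vim*, *St3gal5*, *S100a4* and *Rab11fip1* passed the test, as lower, without those cells and not with all members, and the difference between the 2 sets of cells was not tested. *S100a4* had a log2 difference of -1.04 (SE 0.30) with all members. Of the 8143 and 8323 other ganglion barcodes, 6855 and 6863 held over 10 UMIs of the 10 glial markers.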
